A study of Sebastes mystinus with 44 samples.

Results

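White muscle transcripts of control blue rockfish (Sebastes mystinus) were compared between fish sampled after 2 weeks and fish sampled after 12 h in the aquaria. All libraries labelled control at these times were taken, which gave 8 of the 44 libraries of the study. They were 4 fish at 2 weeks (Mys49, Mys50, Mys51 and Mys52) and 4 fish at 12 h (Mys13, Mys14, Mys15 and Mys16). The other 36 libraries came from control fish at 24 h and from fish kept under lowered pH, lowered oxygen or the exposure named cross, which the labels do not define. Every fish was a juvenile, and no strain or genotype is given. Control fish lived in flow-through seawater with no bubbling of carbon dioxide or nitrogen named for them, at 11.4 to 12.3 °C, the range given for all groups. The labels name 8 aquaria of 10 fish, without saying which fish came from which, so fish of 1 group may have shared water. The hour of day at sampling is not given in the sources used here. Each fish gave 1 library and was sampled once, so no fish was followed over time. Time in the aquaria, age, and anything in handling that went with the sampling day cannot be told apart.

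White muscle makes up most of the trunk of a bony fish. It is built of fast fibres that burn glycogen anaerobically and power bursts of swimming, and it holds few mitochondria. Its messenger RNA is dominated by a small set of very abundant transcripts, in fish muscle mainly those of contractile proteins and of glycolytic enzymes, and all other genes share what is left. In growing juveniles the tissue also adds and enlarges fibres. The deposited tables hold 239549 assembled features (Trinity gene identifiers) and pair none with a gene name. No marker or pathway list could therefore be applied, and the tissue label could not be checked against its defining genes. The features are described below by how abundant they were and by how much they changed. In bulk tissue, a fall of a transcript within cells and a fall in the number of cells that carry it cannot be told apart.

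The 4 libraries at 2 weeks held 12841000 to 17913000 counts, and the 4 at 12 h held 12196000 to 16934000. Levels are given as CPM, counts scaled to a common library total. At these depths 3 counts equal 0.167 to 0.246 CPM on library totals alone, counting error only. This is before the scaling between libraries (TMM) that the other CPM values carry. The 34070 features that passed a filter on low counts over all 44 libraries were tested by edgeR (quasi-likelihood), with Benjamini-Hochberg adjustment over all of them and a threshold of 0.05. P-values treat fish as independent.

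The share of transcripts that changed over 2 weeks was largest at middle abundance, and more of the changed transcripts fell than rose. Of 34070 features 4801 passed (14.1%). At 2 weeks 1916 were higher than at 12 h (5.62%) and 2885 were lower (8.47%). The median log2 fold change over all features was -0.02, on a scale (TMM) that itself sets the typical feature near 0, so changes are relative to that feature. Features were sorted into abundance classes by their mean CPM over all 44 fish, which includes 36 fish outside this comparison. The share that changed peaked in the class of 10 to 100 CPM, where 1135 of 4485 features passed (25.3%). It was 18.9% of 13187 features at 1 to 10 CPM, 12.5% of 746 features at 100 to 1000 CPM, 6.97% of 15521 features under 1 CPM and 3.82% of the 131 features at 1000 CPM or more.

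**Figure D1:**
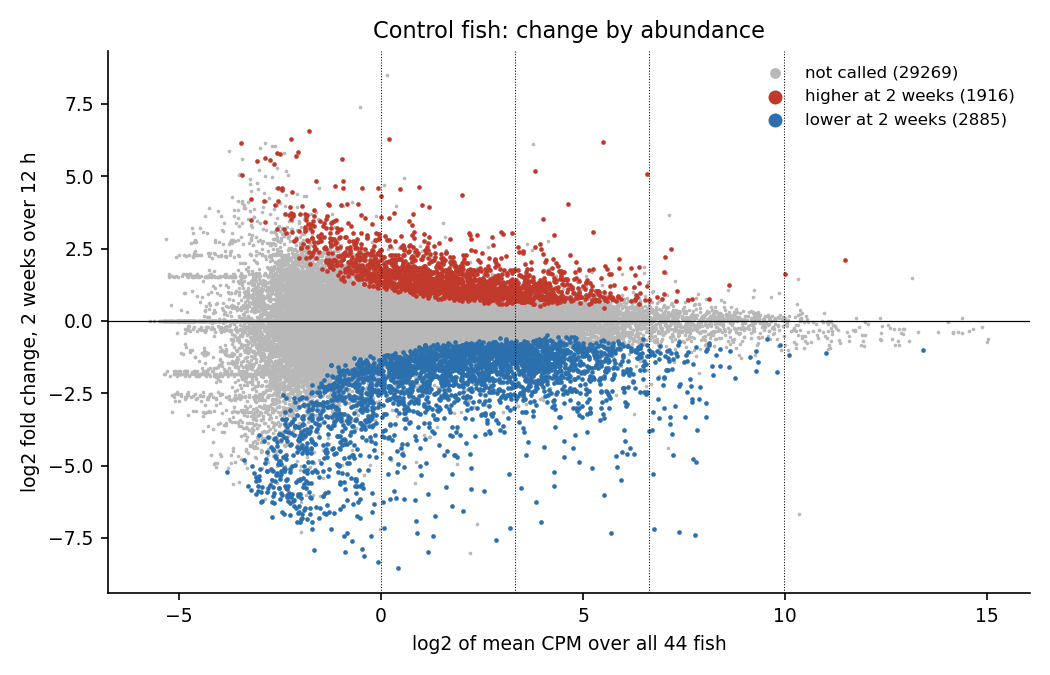
Each point is 1 of the 34070 features, with the log2 of its mean CPM over all 44 fish on the horizontal axis and its log2 fold change in control fish, 2 weeks over 12 h, on the vertical axis. Red points were called higher (1916), blue points lower (2885) and grey points were not called. Dotted lines mark 1, 10, 100 and 1000 CPM, and the blue cloud reaches farther from 0 than the red one in each class under 1000 CPM.

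The balance of rises and falls differed along the abundance scale. At 1 to 10 CPM it was nearly even, with 1157 features higher and 1329 lower. At 10 to 100 CPM 370 were higher and 765 lower. At 100 to 1000 CPM 12 were higher and 81 lower, so 87.1% of the changed features of this class were lower at 2 weeks. With classes from the mean over the 8 control fish, 18 were higher and 69 lower there (79.3%). At 10 to 100 CPM that sorting gave 425 higher and 704 lower. Under 1 CPM 375 were higher and 707 lower. The precision of a fold change also depends on abundance. Its median standard error (SE) on the log2 scale was 0.79 under 1 CPM, 0.38 at 1 to 10 CPM, 0.28 at 10 to 100 CPM, 0.28 at 100 to 1000 CPM and 0.36 at 1000 CPM or more. The small share called under 1 CPM is therefore a share at the lowest precision, and a change of under 2-fold was called for 0 of 9309 such features. That limit was not shared by the class of 100 to 1000 CPM. There the SE was as small as at 10 to 100 CPM, and the typical size of a log2 fold change (its median absolute value) was 0.26 against 0.47.

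**Figure D2:**
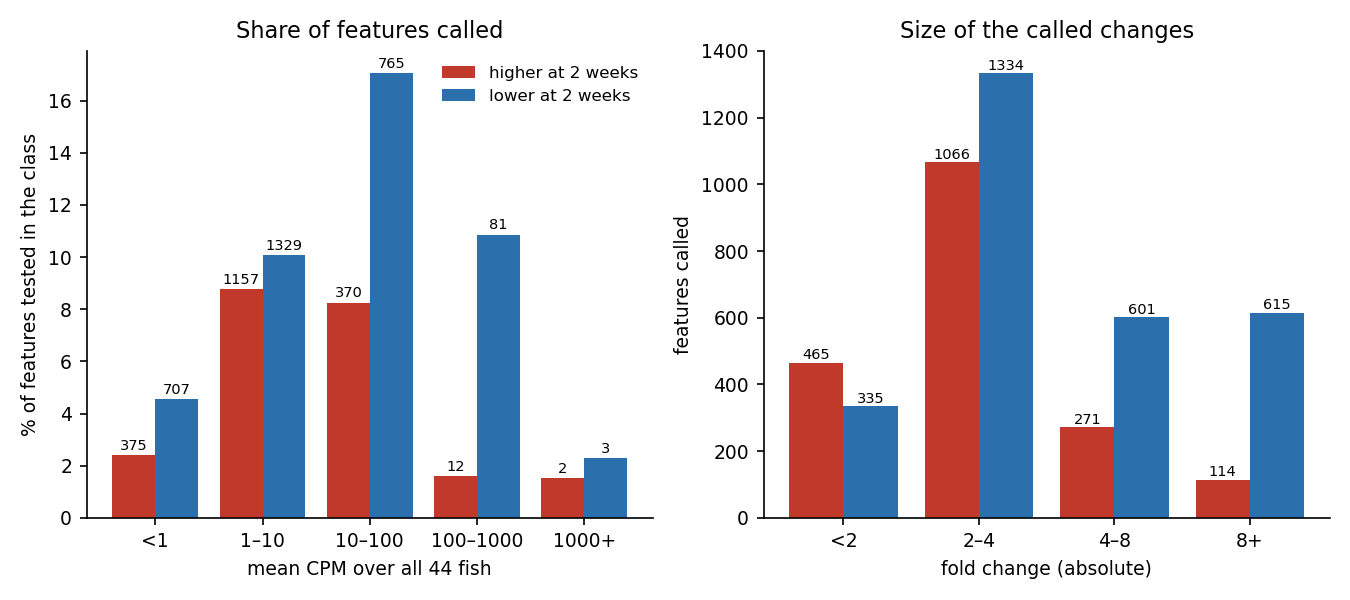
Left, the share of tested features in each abundance class (mean CPM over all 44 fish) that was called higher (red) or lower (blue) in control fish at 2 weeks, with the number of features above each bar. Right, the number of called features by size of the fold change. Falls outnumber rises in each abundance class and in each size class from 2-fold up, and rises outnumber falls only under 2-fold (465 and 335).

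Falls were larger than rises. The median log2 fold change was 1.35 for features called higher (10th to 90th percentile 0.82 to 2.54) and -1.77 for features called lower (0.97 to 4.42 in size). Changes of 8-fold or more made up 114 of the 1916 rises (5.95%) and 615 of the 2885 falls (21.3%). Changes under 2-fold made up 465 rises (24.3%) and 335 falls (11.6%). Under 1 CPM the median log2 fold change of the falls was -3.42. In that class 146 of the 707 falls had 0 counts in all 4 fish at 2 weeks. With these set to the bound that 3 counts over the group allow, the median was -3.04. The bound used library totals without TMM scaling, while the other fold changes were scaled by TMM. Over all 2885 falls the bound left the median at -1.77. From 1 CPM up the medians did not rest on absent transcripts. They were -1.58 at 1 to 10 CPM, -1.42 at 10 to 100 CPM and -1.68 at 100 to 1000 CPM for falls, and 1.27, 0.99 and 0.88 for rises.

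A stricter question is whether a change exceeded 2-fold beyond its own error. In a test against 2-fold (glmTreat of edgeR, same fit and adjustment) 676 features passed (1.98%), 94 of them higher (0.276%) and 582 lower (1.71%). At 100 to 1000 CPM these were 0 higher and 26 lower, and at 10 to 100 CPM 11 higher and 143 lower. Sorted by the mean over the 8 control fish, they were 1 higher and 19 lower at 100 to 1000 CPM. The count of 676 depended on single fish. It was 336 without Mys15, 374 without Mys16, 356 without Mys49, 347 without Mys50 and 255 without Mys52. In each of these counts falls outnumbered rises.

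The most abundant transcripts, those that make up the bulk of white muscle messenger RNA, mostly did not pass. Of 131 features at 1000 CPM or more 5 were called, 2 higher and 3 lower, against 14.1% of all features. In control fish the class leaned downward, with a negative log2 fold change in 106 of the 131 and a median of -0.33. Over all 34070 features it was negative in 17306. For the same contrast in other fish the median of the class was 0.46 under pH, -0.28 under DO and 0.08 under cross. Among control fish it was -0.29 for 24 h against 12 h and -0.08 for 2 weeks against 24 h. These last comparisons share fish with the main one. In control fish the class took 57.1% ± 3.27 of all counts at 2 weeks and 59.9% ± 4.21 at 12 h (SD, n = 4 each). The exact permutation p was 0.343, two-sided, and 0.686 when adjusted over 8 values. The difference of -2.75 percentage points was -0.879 without Mys15, -1.32 without Mys50 and between -4.06 and -2.49 without any of the other 6. All 5 are described here by rank after their values were seen. The feature ranked 13th by abundance had 7575, 6578, 6013 and 5818 CPM at 2 weeks and 9465, 11890, 19401 and 11098 CPM at 12 h. All fish at 2 weeks stood below all fish at 12 h, and the log2 fold change stood at -0.997 (SE 0.31; adjusted p by edgeR 0.0252). The features ranked 70th and 119th also fell with no overlap between the groups, by 1.12 (SE 0.29) and by 1.19 (SE 0.34) on the log2 scale, to means of 1084 and 608 CPM at 2 weeks, against 2364 and 1384 CPM at 12 h.

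The 2 abundant features called higher varied widely among the fish at 2 weeks. The feature ranked 49th had 10253, 14741, 1127 and 4157 CPM at 2 weeks and 2518, 1474, 2136 and 954 CPM at 12 h. The feature ranked 129th had 3093, 3380, 545 and 1378 CPM at 2 weeks and 741, 603, 929 and 452 CPM at 12 h. In both, fish Mys51 at 2 weeks lay within the 12 h range, so the groups overlapped, and the adjusted p-values were 0.0441 and 0.0464 (edgeR). A further feature of this class, ranked 103rd, had a log2 fold change of -6.68 without passing (adjusted p = 0.0607). It stood at 6948 CPM in Mys16 at 12 h and between 11.6 and 61.1 CPM in the other 7 fish, so 1 fish set the fold change.

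Most large changes that did not pass were carried by 1 fish. From 1 CPM up 31 features with a fold change of 8-fold or more did not pass, and in 28 of them 1 fish held more of the summed CPM of the higher group than the other 3 together. Of the 223 that passed in the same range, 40 had this form. Under 1 CPM it was met in 356 of the 484 that did not pass and in 194 of the 506 that passed. The same fish set the calls, and a wide spread within a group by itself makes a call less likely. These counts are therefore a description.

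The values of 4 features show the changes fish by fish. For each direction they are the largest called change at 10 to 100 CPM and at 100 CPM or more among features whose groups did not overlap. Both falls passed the test against 2-fold (glmTreat), with adjusted p of 0.000466 at 10 to 100 CPM and 6.36e-05 at 100 CPM or more. Neither rise passed it, with glmTreat adjusted p of 0.112 and 0.102. TRINITY_DN43833_c4_g2 had 2.96, 2.74, 2.54 and 1.62 CPM at 2 weeks and 164, 376, 524 and 597 CPM at 12 h. It was low in every fish at 2 weeks and abundant in every fish at 12 h, and its log2 fold change was -7.40 (SE 0.91; adjusted p by edgeR 5.56e-06). In counts this was 173 over the 4 fish at 2 weeks and 22266 at 12 h.

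TRINITY_DN52062_c2_g2 followed the same course at a lower level. It had 0.606, 0.268, 0.583 and 0.278 CPM at 2 weeks and 20.2, 23.1, 133 and 97.3 CPM at 12 h. The 12 h fish fell into a lower pair (Mys13 and Mys14) and a higher pair (Mys15 and Mys16), all above the 2-week fish, and the log2 fold change was -7.31 (SE 1.10; adjusted p by edgeR 6.01e-05).

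TRINITY_DN42608_c3_g3 rose. It had 283, 431, 377 and 258 CPM at 2 weeks and 113, 102, 14.7 and 12.7 CPM at 12 h, which gives 2.48 on the log2 scale (SE 0.65; adjusted p by edgeR 0.00942). The 12 h fish split into the same pairs, here with Mys13 and Mys14 as the higher pair. As in TRINITY_DN52062_c2_g2, Mys13 and Mys14 lay nearer to the 2-week fish. The call of TRINITY_DN42608_c3_g3 was kept whichever of the 8 fish was left out.

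TRINITY_DN45128_c3_g1 was nearly absent in one group and present in the other. It had 152, 92.3, 259 and 90.1 CPM at 2 weeks and 0.684, 4.22, 1.71 and 1.35 CPM at 12 h, which gives 6.18 on the log2 scale (SE 1.93; adjusted p by edgeR 0.0287). The call was lost without Mys13, Mys15 or Mys16 and without a low-count filter, with edgeR adjusted p up to 0.109, while the log2 fold change in these 4 fits was 5.90, 6.11, 6.03 and 6.22. Its level in the other fish did not follow time. At 2 weeks it ran from 0.560 to 1.08 CPM in the 2 pH fish and from 0 to 0.975 CPM in the 4 DO fish. In cross fish it ran from 0.445 to 154 CPM at 2 weeks and from 0.300 to 171 CPM at 12 h. Between times its log2 fold change was -0.35 in fish of the pH group, -1.20 under DO and -0.02 under cross, none called.

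**Figure D3:**
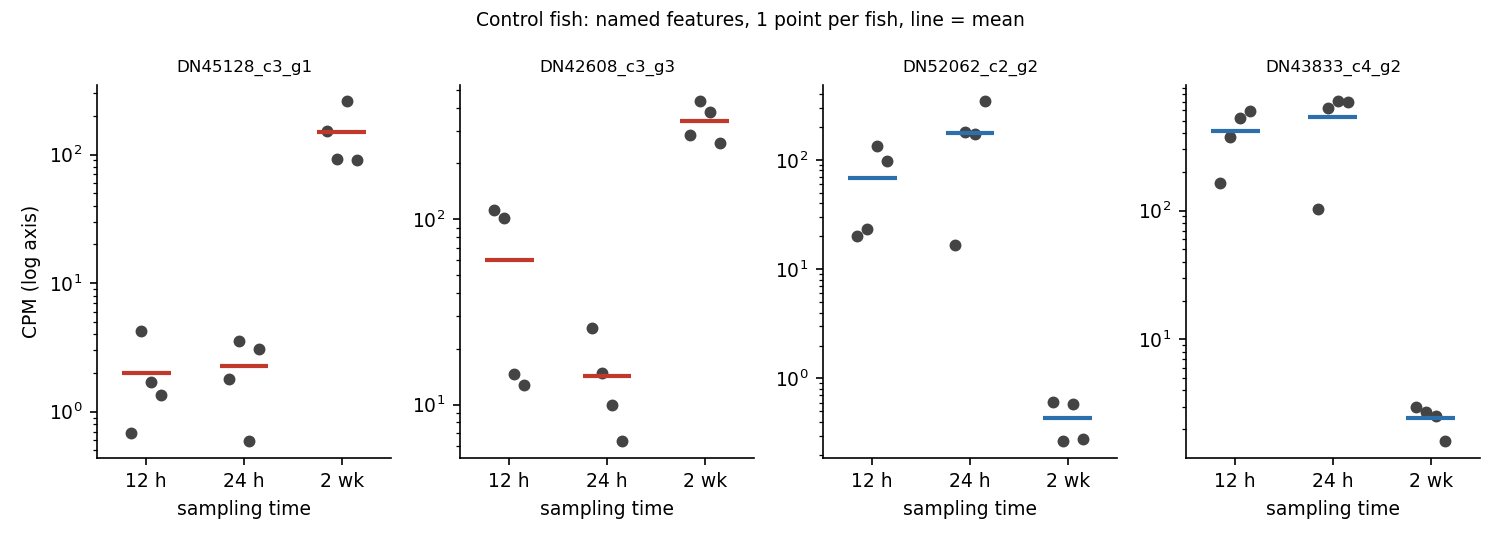
CPM of the 4 named features in each control fish (1 point per fish, n = 4 per time, horizontal line at the mean) on log axes, by sampling time from 12 h to 2 weeks. Both features on the right stand at 0.268 to 2.96 CPM in all fish at 2 weeks, and both on the left stand at 90.1 to 431 CPM.

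The other 3 named features kept their direction in fish of every exposure. TRINITY_DN43833_c4_g2 had log2 fold changes between 2 weeks and 12 h of -7.16 under pH, -5.03 under DO and -5.79 under cross (edgeR adjusted p = 0.00170, 0.00294 and 0.000161). TRINITY_DN52062_c2_g2 gave -6.43, -4.90 and -5.75 (edgeR adjusted p = 0.00820, 0.0188 and 0.000683). TRINITY_DN42608_c3_g3 gave 3.12 in pH fish (edgeR adjusted p = 0.00943), and 1.45 in DO and 1.05 in cross fish, which did not pass (adjusted p = 0.361 and 0.329).

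Near-complete losses were more common than gains among called features. A mean of 100 CPM or more at 12 h and under 10 CPM at 2 weeks was found in 11 features. All were called and none had overlapping groups, against 14.1% called and 20.7% without overlap over all features. The opposite pattern was found in 2 features, both called and 1 of them without overlap. Such features were picked by a wide gap between these same fish, which by itself favours calls and separated groups. Of these 11, all were also called lower at 2 weeks in pH fish and in cross fish, and 6 in DO fish, where 4.61% of all tested features were called lower under pH, 5.03% under cross and 0.329% under DO. At lower levels 16 called features, 14 of them without overlap, had at least 10 CPM at 12 h and under 1 CPM at 2 weeks. The reverse pattern was called for 0 features by edgeR. That reverse pattern was met by 1 feature, which did not pass. At the limit of detection 873 tested features had 0 counts in every fish at 2 weeks and 534 in every fish at 12 h. Of these, 287 were at 0 at both times and so could not be called. The filter used all 44 libraries, so features absent at 1 time passed it through other fish. Of the 873 features 149 were called lower, where 8.47% of all tested features were called lower. Counted against 3 counts over the group, on library totals without TMM scaling, the 149 were at least 3.02-fold to at least 48.3-fold lower. Of the 534 features at 0 at 12 h, 12 were called higher, where 5.62% of all tested features were called higher. On the same unscaled totals the 12 were at least 4.71-fold to at least 14.1-fold higher.

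In most called features the groups of 4 fish did not overlap. Groups did not overlap in 7063 features (20.7%), with all 2-week fish above in 3367 (9.88%) and below in 3696 (10.8%). Among the 4801 called features this was so for 4028 (83.9%). The same fish set the calls, which by itself favours separated groups. The share of 83.9% is therefore a description and no separate test of how evenly the fish shared a change. Over the features called higher, each fish at 2 weeks had a median shift from the 12 h mean of 1.11 (Mys51) to 1.42 (Mys52) on the log2 scale. Over those called lower the shift was -1.34 (Mys51) to -1.68 (Mys52). Seen from the other side, the 12 h fish Mys15 and Mys16 stood 1.80 and 1.79 above the 2-week mean over the features called lower, and Mys13 and Mys14 stood 1.19 and 1.47 above it. The size of these shifts and the order of the fish in them are also a description, since the same fish set the calls. The number of called features was 2849 without Mys15, 2953 without Mys16 and 3074 without Mys52, and from 3346 to 5139 without any of the other 5 fish. Of the 2849 features 2802 were among the 4801, all with the same direction.

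On average the 4 fish at 2 weeks were more alike than the 4 fish at 12 h. The mean correlation of log2 CPM over the 34070 features was 0.949 in the 6 pairs at 2 weeks, 0.928 in the 6 pairs at 12 h and 0.894 in the 16 pairs across times. Single pairs overlapped, from 0.944 to 0.954 at 2 weeks and from 0.901 to 0.947 at 12 h. The median standard deviation (SD) of log2 CPM among 4 fish was 0.41 at 2 weeks and 0.51 at 12 h, and it was smaller at 2 weeks in 60.6% of features. This held in every abundance class, from 0.52 against 0.66 under 1 CPM to 0.31 against 0.41 at 1000 CPM or more. Within the 131 features at 1000 CPM or more the pairs across times (mean correlation 0.871) were nearly as alike as the pairs at 12 h (0.877). The pairs at 2 weeks were more alike (0.929), and single pairs across times ran from 0.664 to 0.961. At 10 to 100 CPM the pairs across times were far less alike, at 0.530 against 0.794 at 12 h and 0.849 at 2 weeks. These correlations are across features, which are not independent, and no test was made of the difference in spread.

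The changed features were 14.1% of those tested but held a small part of the messenger RNA. Features called higher took 4.03%, 5.76%, 2.88% and 3.65% of all counts in the fish at 2 weeks, and 1.79%, 1.71%, 0.929% and 1.07% in the fish at 12 h. Features called lower took 3.07%, 3.39%, 3.65% and 2.90% at 2 weeks, and 6.48%, 7.70%, 7.91% and 8.01% at 12 h. Their means were 3.25% ± 0.335 at 2 weeks and 7.52% ± 0.708 at 12 h (SD, n = 4 each). These shares describe features chosen by the same values, so they were not tested.

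**Figure D4:**
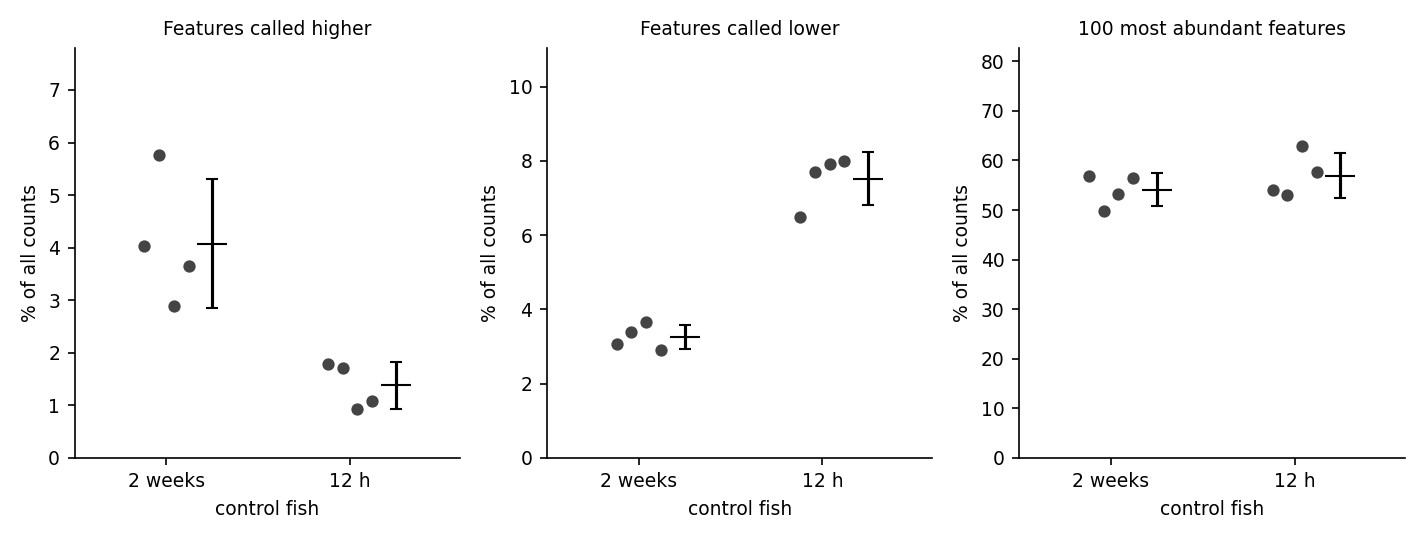
Percent of all counts taken by features called higher (left), features called lower (middle) and the 100 most abundant features of each library (right), for control fish of 2 weeks and of 12 h. Points are fish, and bars give the mean ± SD (n = 4). The groups separate in the first pair of panels, whose features were chosen by these values, and overlap in the last.

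For 8 values that describe the overall shape of the transcript pool no difference between times passed the test. The 100 most abundant features took 54.1% ± 3.28 of counts at 2 weeks and 56.9% ± 4.54 at 12 h (SD, n = 4 each; exact permutation p = 0.343, two-sided, adjusted over 8 values 0.686). The 10 most abundant took 22.98% ± 1.05 at 2 weeks and 23.7% ± 2.39 at 12 h (SD, n = 4 each; exact permutation p = 0.686, adjusted 0.784). At an equal depth of 9884766 counts, the smallest library of the study, 46821 ± 2071 features were found at 2 weeks and 47054 ± 4018 at 12 h (SD, n = 4 each; exact permutation p = 1). The smallest of the 8 p-values belonged to the share of counts in features of 1 to 10 CPM, 5.40% ± 0.471 at 2 weeks and 4.60% ± 0.765 at 12 h (exact permutation p = 0.114, adjusted 0.686). With 4 against 4 fish this exact permutation test cannot go below p = 0.0286, so a single shifted value could not pass after adjustment over 8 values. Without Mys15 the difference in the share of the 100 most abundant features was -0.770 percentage points, and without Mys50 it was -1.38, against -2.79 with all 8 fish.

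Several assembled features can stem from 1 gene, so changed features are not a count of genes. In Trinity identifiers the DN and c numbers mark a cluster of connected reads and the g number a gene within it. The 34070 features fell into 20545 such clusters, 7813 of them with more than 1 tested feature. Of the features in shared clusters 14.3% were called, against 13.7% of single ones. With clusters defined by the DN number alone the shares were 13.95% and 14.97%, and neither difference was tested. In 456 clusters at least 2 features were called. All moved up in 88 of these, all moved down in 208, and 160 held both rises and falls. Expected counts of near-identical features are uncertain, since reads that match both are divided by estimation, and the part of this in the opposite calls was not tested. When counts were summed per cluster, an alternative chosen after seeing the data, 3408 clusters passed, 1391 higher and 2017 lower (16.2% of those tested). None of the 4 named features shared its cluster with another called feature.

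Control fish were also sampled at 24 h. Comparisons with them share the 12 h or the 2-week fish with the main one, and the features were chosen with those fish, so the values are given side by side as a description. From 12 h to 24 h edgeR called 340 features (0.998%), and between 2 weeks and 24 h it called 8419 (24.7%). Over the features called higher at 2 weeks against 12 h, the median log2 fold change was 0.07 for 24 h against 12 h and 1.26 for 2 weeks against 24 h. Over those called lower the values were 0.08 and -1.90. TRINITY_DN43833_c4_g2 stood at 104, 629, 705 and 695 CPM at 24 h and TRINITY_DN52062_c2_g2 at 16.7, 180, 172 and 343 CPM, both far above the 2-week fish. TRINITY_DN42608_c3_g3 stood at 25.8, 14.8, 9.92 and 6.37 CPM at 24 h, below its 2-week level in every fish. TRINITY_DN45128_c3_g1 stood at 1.79, 3.55, 0.593 and 3.09 CPM at 24 h, also below its 2-week level in every fish. Fish Mys25 was the lowest of the 24 h fish in both falling features and the highest in TRINITY_DN42608_c3_g3. In TRINITY_DN45128_c3_g1 it was neither the highest nor the lowest.

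The same contrast in fish kept under lowered pH, lowered oxygen or cross shares no fish with the control comparison. Between 2 weeks and 12 h edgeR called 2523 features in pH fish (2 against 4 fish, 7.41%), with 954 higher (2.80%) and 1569 lower (4.61%). In DO fish (4 against 4) it called 148 (0.434%), with 36 higher (0.106%) and 112 lower (0.329%). In cross fish (4 against 4) it called 2335 (6.85%), with 620 higher (1.82%) and 1715 lower (5.03%). Of these calls 1537 in pH (60.9% of the pH calls, 32.01% of the control calls), 127 in DO (85.8% and 2.65%) and 1530 in cross (65.5% and 31.9%) were also called in control fish, all in the same direction.

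Calls met in other fish are given by abundance class and direction, each beside the share called in either direction over all features of the class. Differences between classes or directions were not tested. At 100 to 1000 CPM, 42 of the 81 falls of controls were also called in pH fish (51.9%), 11 in DO fish (13.6%) and 55 in cross fish (67.9%). Of the 12 rises 4, 0 and 0 were called, and of all features of this class 15.1%, 1.47% and 11.0%. At 10 to 100 CPM 53.3%, 6.14% and 62.5% of the 765 falls and 31.9%, 1.62% and 11.9% of the 370 rises were called under pH, DO and cross, against 17.2%, 1.23% and 15.5% of the class. At 1 to 10 CPM 37.2%, 3.01% and 40.9% of the 1329 falls and 28.3%, 1.47% and 17.1% of the 1157 rises were called, against 10.1%, 0.516% and 8.45%. Under 1 CPM 12.4%, 0.566% and 21.5% of the 707 falls and 14.7%, 0.533% and 15.7% of the 375 rises were called, against 1.98%, 0.0902% and 2.87%. Falls thus had the higher share from 1 to 1000 CPM in all 3 exposures, and under 1 CPM rises had it in pH fish. At 1000 CPM or more 0 of the 3 falls and 0 of the 2 rises were called in any exposure. Of all features of that class 3.82%, 0% and 0% were called under pH, DO and cross. The feature ranked 13th changed sign in pH fish (0.14) and that ranked 49th in cross fish (-0.23). All other signs of these 5 were shared. Signs were shared more widely than calls. Of the features called lower in controls 96.5% shared the sign in pH fish, 92.9% in DO fish and 97.96% in cross fish, and of those called higher 94.6%, 93.9% and 93.4%. Over all 34070 features these shares were 70.7%, 68.9% and 70.9%.

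**Figure D5:**
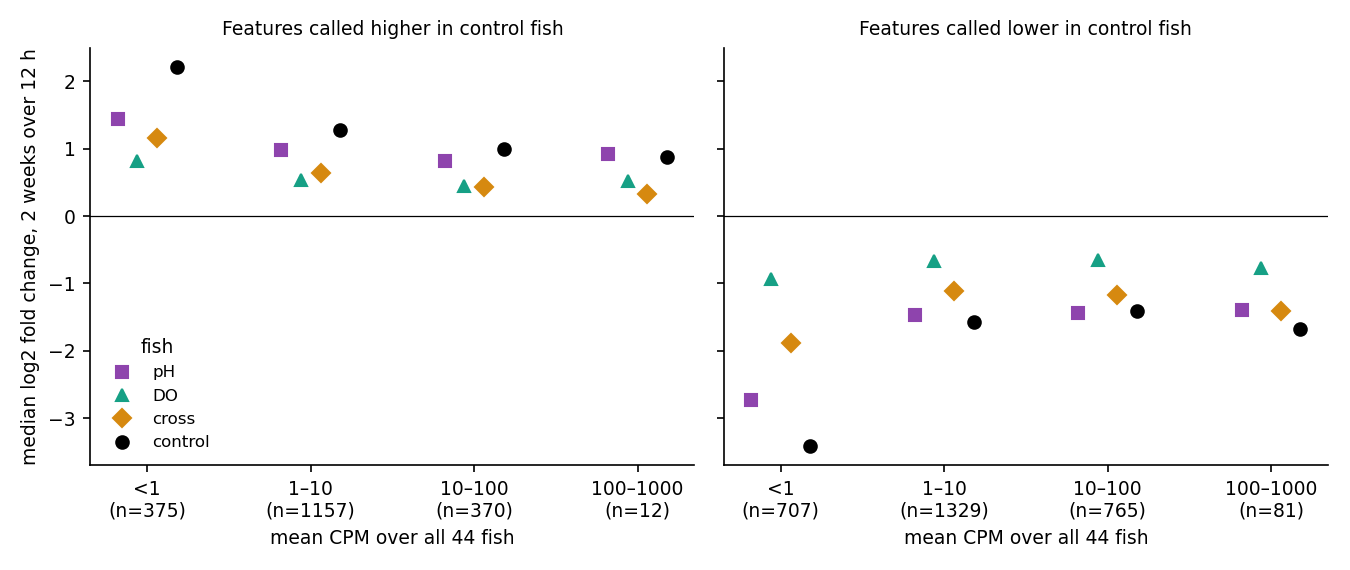
Median log2 fold change between 2 weeks and 12 h of the features called higher (left) or lower (right) in control fish, in pH, DO, cross and control fish, by abundance class (mean CPM over all 44 fish, number of features in brackets, classes under 1000 CPM). The medians of the other fish lie on the same side of 0 as those of control fish, and those of DO fish lie closest to 0 except for rises at 10 CPM or more, where those of cross fish do.

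Over all features called in controls the median change was smaller in the other fish. The median log2 fold change of the falls was -1.62 under pH, -0.72 under DO and -1.25 under cross, against -1.77 in control fish. That of the rises was 0.99, 0.55 and 0.66, against 1.35. The features were picked for their change in control fish, which by itself makes the control value the larger one. Sets picked by the calls of each exposure carry the same selection in the other direction. The falls called in that exposure had a median of -2.03 in pH and -1.33 in control fish, of -1.96 in DO and -2.30 in control fish, and of -1.68 in cross and -1.63 in control fish. The rises had a median of 1.51 in pH and 1.02 in control fish, of 2.05 in DO and 1.46 in control fish, and of 1.73 in cross and 1.24 in control fish. The control change was the smaller in 5 of these 6 sets and the larger for the DO falls.

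Whether time acted differently in exposed and control fish was tested directly on all features. For the mean time change of pH, DO and cross fish minus that of control fish 0 features passed by edgeR, and 1435 (4.21%) had an unadjusted p under 0.05. For single exposures 0 passed under pH, with 1930 at an unadjusted p under 0.05 (5.66%). Under DO 0 passed, with 2267 (6.65%) and a smallest adjusted p of 0.222, and under cross 0 passed, with 1800 (5.28%). Only edgeR was run here. No feature was thus shown to change with time in control fish in a way that differed from the exposed fish.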

How the data were processed

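White muscle RNA of 44 fish was sequenced, 1 stranded mRNA library per fish. The authors deposited 1 table of expected counts for each sampling time. These are RSEM's estimates of the reads from each assembled feature and carry no normalization. The submitters' processing notes name Trimmomatic 0.36, FastQC 0.11.5, Bowtie, RSEM 1.3.0 and edgeR without saying how each was used. How the assembly was made is not stated in the sources used here. Per the labels' protocols, libraries were made in 2 sets of 24 with randomized order. The set of each fish is not given, so it could not enter a model.

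The tables were joined by feature identifier and expected counts rounded to whole numbers. All 44 libraries in 12 groups entered 1 fit (R 4.3.3, edgeR 4.0.16, robust quasi-likelihood, TMM scaling, filterByExpr with minimum count 10 and total 15). CPM values are scaled by TMM. Log2 CPM used a prior count of 2. SE was taken from the log2 fold change and its F statistic. Single values per fish were compared by exact permutation. Abundance classes used mean CPM over all 44 fish. Named features were, per direction, the largest called changes at 10 to 100 CPM and at 100 CPM or more without overlap of groups. The comparison, classes and naming rule were chosen with earlier results of these data known. The test was also run on simulated counts with known changes. These were fewer than the calls made here and did not reach the largest sizes, and no result above rests on them. Alternatives were RLE and upper-quartile scaling, no and stricter filters, DESeq2 1.42.0, limma 3.58.1 voom, 1 surrogate variable (sva 3.50.0), only the 8 fish, each fish left out, other class definitions and counts summed per read cluster.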

Additional observations from a re-analysis of the deposited data

Results flagged for a closer look

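Of 55 sets of 4 control fish checked, 3 held a fish far from the other 3 by Dixon's gap test, where chance gives about 1 in 20. That is close to the number chance gives, and sets from the same fish are not independent. All 3 flagged sets were at 24 h, outside the main comparison. Fish Mys25 had 104 CPM of TRINITY_DN43833_c4_g2, against 629 to 705 CPM in the other 24 h fish. Features of 100 to 1000 CPM took 21.5% of its counts, against 24.6% to 25.2%. In fish Mys27, features that did not enter the test took 0.404% of counts, against 0.296% to 0.309%.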

How the results depend on the processing

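The count of features changed between 2 weeks and 12 h (4801) ran from 2849 to 5139 with each fish left out and from 3310 to 7570 over the other alternatives. It was within 1.5 times the main count for all of the latter except limma voom (7570, of which 4694 were among the 4801). DESeq2 called 5748 and the fit of the 8 fish alone 5015. The number of features tested differed, so shares moved more than counts. Without a low-count filter 3310 of 155122 features were called (2.13%), against 14.1% in the main fit. The stricter filter gave 4740 of 21724 (21.8%). The fit of the 8 fish gave 5015 of 21597 (23.2%), of which 3740 were among the 4801. Falls outnumbered rises in each of these counts. Changes beyond 2-fold (676) ran from 255 to 892 with each fish left out and from 612 to 715 otherwise, apart from 319 clusters when counts were summed per read cluster. The median log2 fold change over all features ran from -0.05 to 0.01.

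The 0 features called for exposed minus control time changes were also 0 with RLE factors, with the stricter filter and with each control fish left out. Sorting by the mean over the 8 fish moved no class count by over 1.5 times. Rises at 100 to 1000 CPM went from 12 to 18 and falls from 81 to 69. The named features kept their direction throughout, and only TRINITY_DN45128_c3_g1 lost its call, in 4 alternatives. Differences that did not pass changed sign when fish were left out for the share of the 10 most abundant features (-1.37 to 0.29 percentage points) and for features found at equal depth (-1562 to 1620.5). No paired analysis was possible because each fish was sampled once and the groups hold different fish. Depth limits features under 1 CPM, where 3 counts equal up to 0.246 CPM before TMM scaling.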

Other observations

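Among called features the median change in the other fish was larger where the change in control fish was larger. Among features that fell 8-fold or more in controls, the median log2 fold change between 2 weeks and 12 h was -4.13 under pH, -1.48 under DO and -2.82 under cross, against -4.28 in control fish. Among falls under 2-fold it was -0.74, -0.39 and -0.65, against -0.88. Among rises of 8-fold or more it was 2.40, 1.52 and 1.71, against 3.62. Shared signs did not follow size in the same way. Of the falls of 8-fold or more 98.4%, 86.5% and 98.4% shared the sign under pH, DO and cross. Of the falls under 2-fold 93.7%, 94.9% and 98.5% did. Size also went with abundance, since 417 of the 615 falls of 8-fold or more were under 1 CPM.

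The abundant feature ranked 103rd, whose fold change in controls rested on 1 fish, reached 1000 CPM in 16 of the study's 44 fish and stayed under 100 CPM in 27.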
